A study of Mus musculus with 30 samples.

Results

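The response of late cells to the vitamin D hormone was measured in 6 of the 30 libraries of the series: 3 from cells given 1,25(OH)2D3 (written 1,25D3 below) at day 35 of differentiation and 3 from cells given vehicle on the same day. They were taken by their labels, and every gene symbol in their files belongs to the comparison. The cells are IDG-SW3, a mouse bone cell line that divides while an interferon-gamma-driven, temperature-sensitive T antigen is active and passes from osteoblast to osteocyte once it is not. All 6 cultures were expanded at 33 °C with 50 U/mL interferon-gamma, then moved to 37 °C without it in medium with 50 µg/mL ascorbic acid and 4 mM beta-glycerol phosphate. At day 35 the treated cells received 100 nM 1,25D3 for 24 h, and the others received ethanol. The labels call the 3 libraries per group biological replicates of this 1 line, so the p-values below measure the spread between cultures of a single line. A further 3 libraries treated with 1,25D3 and 3 with vehicle at day 3 were used only for the spread estimate and to test where the late response differs from the early one.

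1,25D3 is the hormonal form of vitamin D3. It binds the vitamin D receptor, a nuclear receptor that pairs with a retinoid X receptor on DNA and switches on, among others, the gene of the enzyme that breaks the hormone down. In bone the hormone is known for making osteoblast-lineage cells signal to osteoclast precursors and for changing genes of phosphate, pyrophosphate and matrix mineral. Osteocytes are the cells that osteoblasts become once they are buried in the matrix they made.

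The 1,25D3 libraries held 54325515, 32390570 and 52020289 counts, and the vehicle libraries 36056152, 29101300 and 28114286. Of 25410 symbols, 20055 had enough counts to be tested and 5355 did not. Olfactory receptors have no known part in bone cells, and the reads that fell on 1100 of their genes, per kilobase, gave a measure of background. It stood for 0.0154%, 1.04% and 0.0381% of the counts in the 1,25D3 libraries and 0.0369%, 0.362% and 0.140% in the vehicle libraries. 1,25D3 replicate 2 therefore stood apart in background. On the component of largest variance (56.2%) the 1,25D3 libraries lay at −26.5 to −21.7 and the vehicle libraries at 21.3 to 27.0, while on the next (19.5%) vehicle replicate 1 lay at 25.0 and the other 5 between −15.7 and 6.69. Counts are therefore also given without these 2 libraries.

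The cultures carried the RNA of bone matrix cells, and markers of other cell types were mostly low. The osteoblast list summed to 50930 to 63421 CPM (counts relative to the scaled library total) in 1,25D3 libraries and 57605 to 76721 CPM in vehicle libraries, and the osteocyte list to 9115 to 11376 CPM in 1,25D3 libraries and 12186 to 13788 CPM in vehicle libraries. *Dmp1*, a phosphoprotein gene of osteocytes, had 210.3, 255 and 298 CPM with 1,25D3 and 121, 187 and 238 CPM with vehicle. The later osteocyte markers were low, at no more than 8.23 CPM for *Sost* and 2.71 CPM for *Mepe* in any library. *Sost* had 0, 12 and 20 counts with 1,25D3 and 68, 228 and 162 with vehicle, and *Mepe* had 8, 18 and 37 counts with 1,25D3 and 37, 75 and 34 with vehicle. Neither passed the test (log2 change ± standard error of −4.42 ± 1.19, adjusted p = 0.0563, and −1.79 ± 0.94, adjusted p = 0.438), although *Sost* did with no low-count filter (adjusted p = 0.0459), with background subtracted (0.0398), with only the 6 day 35 libraries (0.0264) and in DESeq2 (0.00372). *Fgf23* had 0, 20 and 30 counts with 1,25D3 and 0, 1 and 0 with vehicle, a ratio of 33.3 with a 95% counting interval of 5.71 to 1341, and its change between cultures did not pass either (adjusted p = 0.313). The CPM of *Dmp1* thus stood far above those of *Sost*, *Mepe* and *Fgf23*. CPM are not scaled to gene length, so they do not rank the genes by expression. The leukocyte and osteoclast genes *Ptprc*, *Itgam* and *Calcr*, the endothelial genes *Pecam1* and *Emcn*, the fat droplet gene *Plin1* and the epidermal gene *Trp63* were listed at 0 counts in all 6 libraries. So were *Rpl19* and *Canx*, which every cell uses, and a listed 0 therefore does not show that a gene was silent. Whether low counts of other genes are too low in the same way was not tested. Other members of the same marker lists had counts. *Ctsk*, an osteoclast protease gene, had 581, 506 and 626 CPM with 1,25D3 and 720.4, 564 and 685 CPM with vehicle, and the macrophage genes *Csf1r* and *Cd68* had 5 to 22 counts in every library. The endothelial gene *Cdh5* had 71 counts over the 1,25D3 libraries, all in replicate 2, and 7 over the vehicle libraries, and the adipocyte gene *Adipoq* 825 with 1,25D3 and 288 with vehicle. Of 6 endothelial markers tested 1 rose, *Flt1*, at 0.908, 2.00 and 1.57 CPM with 1,25D3 and 0.263, 0.253 and 0.204 CPM with vehicle (2.61 ± 0.55, adjusted p = 0.00996). Its call was lost without any 1 of the vehicle libraries, without both libraries that stood apart and with background subtracted (adjusted p of up to 0.141). In whole cultures, fewer cells of a type and less RNA per cell cannot be told apart.

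Of 20055 genes tested, 914 differed between 1,25D3 and vehicle at day 35 (edgeR quasi-likelihood test, adjusted p below 0.05), or 4.56% of all tested. The hormone raised 484 (2.41%) and lowered 430 (2.14%), and 2892 genes had an unadjusted p below 0.05. The increases were the larger changes: 128 of the 484 were more than 4-fold and 55 more than 8-fold, against 48 and 10 of the 430 decreases. The median log2 change was 1.29 among genes that rose and −1.06 among genes that fell, and 0.02 over all genes tested. The 2 groups did not overlap for any of the 914. Over all genes tested, 8.23% had every 1,25D3 library above every vehicle library and 12.5% had the reverse. Leaving out each of the 6 libraries in turn gave 589 to 775 genes, with the lowest count, 354 higher and 235 lower, without vehicle replicate 2. Without both libraries that stood apart there were 409 higher and 256 lower. In total 460 of the 914 genes passed in all 7 of these leave-outs. No gene changed sign, which the lack of overlap between the groups made nearly certain beforehand. The genes described below as changed are among those 460 unless said otherwise. Counts of list members below are to be read beside the shares over all genes tested, 2.41% higher and 2.14% lower.

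**Figure D1:**
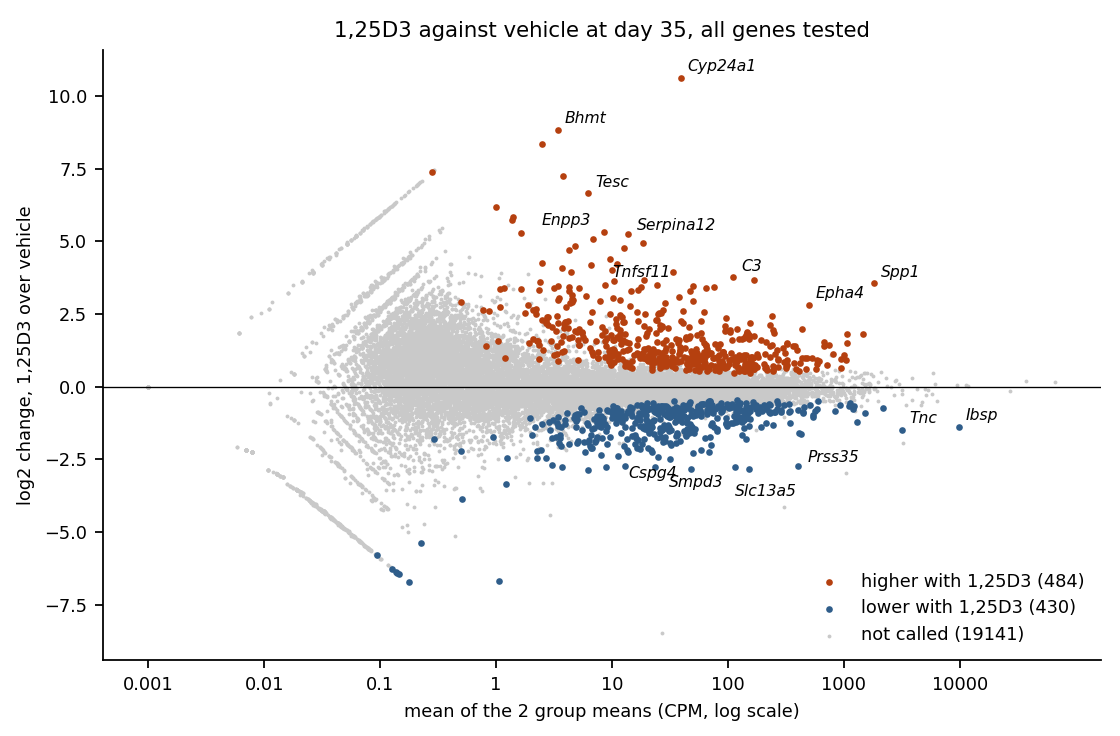
Log2 change of each of the 20055 genes tested (vertical axis, 1,25D3 over vehicle at day 35) against the mean of the 2 group means in CPM (horizontal axis, log scale); orange points are the 484 genes called higher, blue the 430 called lower, grey those not called. *Cyp24a1* lies highest at 10.62, and the called genes beyond 4-fold are more often orange (128) than blue (48).

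The vitamin D system itself came first among the genes that rose. *Cyp24a1* encodes the enzyme that degrades the hormone. It stood at 65.2, 68.1 and 102 CPM in 1,25D3 libraries, against 0.0292, 0.0722 and 0.0409 CPM in vehicle libraries, from 10285 against 4 counts (log2 change 10.62 ± 0.45, adjusted p = 8.81e-09). The receptor gene *Vdr* had 19.9, 25.6 and 31.4 CPM with 1,25D3 and 10.5, 8.12 and 6.05 CPM with vehicle (1.64 ± 0.35, adjusted p = 0.0124). Its call was lost without 1,25D3 replicate 3 (1.51, adjusted p = 0.053) or vehicle replicate 3 (1.49, adjusted p = 0.062). These were the only 2 of 20 tested genes of vitamin D action and metabolism to pass. The partner receptor gene *Rxra* was at 108, 85.8 and 116 CPM with 1,25D3 and 102, 99.9 and 96.6 CPM with vehicle (0.05 ± 0.13, adjusted p = 0.914), with overlapping groups, and the hormone-activating enzyme gene *Cyp27b1* stayed below 0.5 CPM in every library.

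Of 36 tested genes listed as known vitamin D targets, 10 rose and 1 fell, and their median log2 change was 0.81. The list holds genes chosen with such a response in mind, so the direction is no independent evidence. Besides *Cyp24a1* and *Vdr* the members that rose were *Enpp3*, *S100g*, *Spp1*, *Tnfsf11*, *Notum*, *Enpp1*, *Thbd* and *Mmp13*. *S100g*, which encodes the calcium-binding protein calbindin-D9k of the intestine, was low at 4.50, 3.43 and 1.78 CPM with 1,25D3 and at 0.117, 0 and 0.123 CPM with vehicle (5.28 ± 0.96). It was the only 1 of 30 calcium-handling genes to pass in the main fit, or 3.33% higher against 2.41% of all genes tested. There were 3 higher and 3 lower in DESeq2, and 3 higher and 2 lower with only the 6 day 35 libraries in the fit. The calcium channel gene *Trpv6* (0.222, 0.910 and 1.74 CPM with 1,25D3 and 0.205, 0.217 and 0.286 CPM with vehicle, adjusted p = 0.283) and the pump gene *Atp2b1* (359, 303 and 362 CPM with 1,25D3 and 288, 287 and 335 CPM with vehicle, adjusted p = 0.697) did not pass. *Thbd*, the gene of the anticoagulant receptor thrombomodulin, had 341, 384 and 445 CPM with 1,25D3 and 99.1, 103 and 103 CPM with vehicle (1.94 ± 0.14, adjusted p = 6.86e-07). The collagenase gene *Mmp13*, abundant in both groups, had 1369, 1137 and 1598 CPM with 1,25D3 and 669, 587 and 649 CPM with vehicle (1.11 ± 0.19). Every library of the hormone group lay above every vehicle library for these 3 genes, as for every gene called higher.

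**Figure D2:**
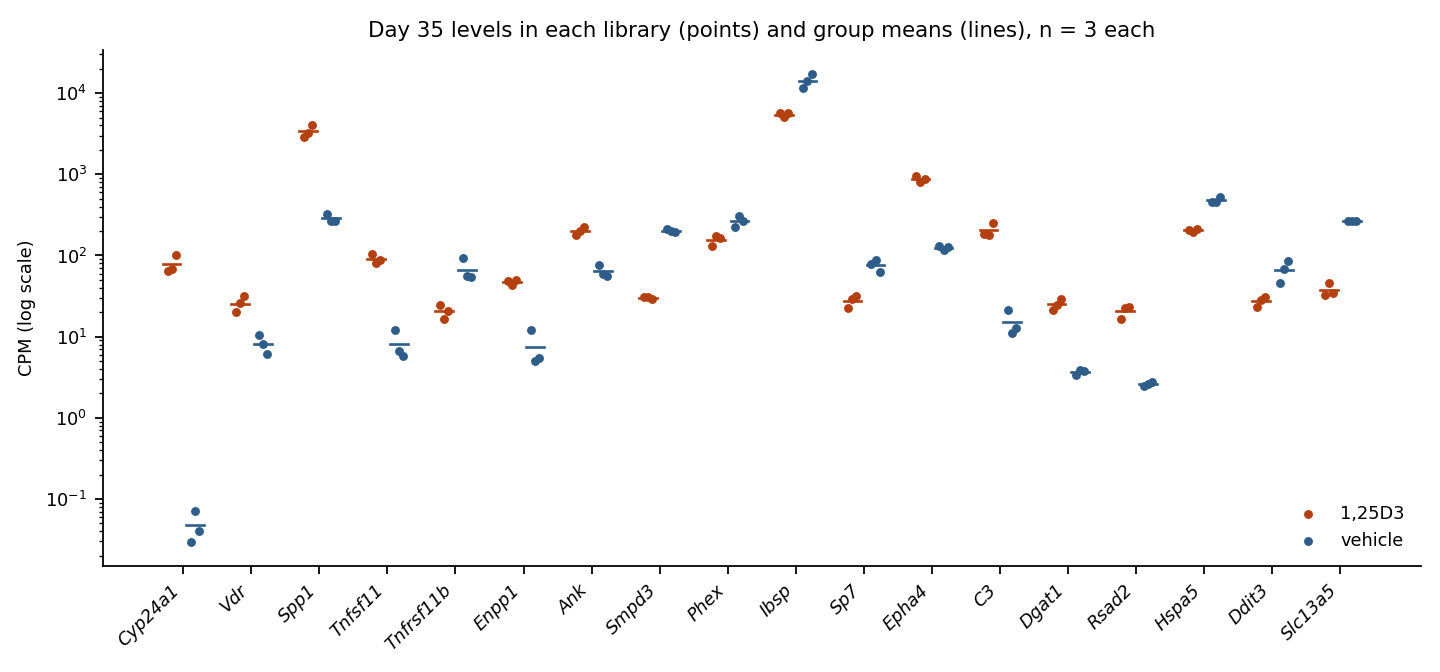
CPM (vertical axis, log scale) of 18 genes in each day 35 library, 1,25D3 in orange on the left of each pair and vehicle in blue on the right; points are the 3 libraries of a group and the line is their mean. The groups do not overlap for any gene shown, as for every gene called.

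The largest increases after *Cyp24a1* among genes of at least 5 CPM in either group were in genes nearly silent with vehicle. *Bhmt*, which encodes a betaine-homocysteine methyltransferase of liver, had 903 counts over the 1,25D3 libraries and 1 over the vehicle libraries, a ratio of 601 with a 95% counting interval of 108 to 23776. *Ankrd55* was at 4.84, 9.07 and 8.77 CPM with 1,25D3 and 0, 0.144 and 0 CPM with vehicle (7.23 ± 0.91), and *Tesc*, a calcium-binding regulator of a sodium-proton exchanger, at 11.5, 10.4 and 15.3 CPM with 1,25D3 and 0.0292, 0.108 and 0.245 CPM with vehicle (6.65 ± 0.90). *Serpina12*, the gene of the secreted serpin vaspin, had 19.1, 34.0 and 26.9 CPM with 1,25D3 and 0.409, 0.794 and 0.940 CPM with vehicle (5.24 ± 0.62). Each of these genes was silent or below 1 CPM in every vehicle library. The bradykinin receptor gene *Bdkrb2* (10.2, 13.5 and 16.2 CPM with 1,25D3 and 0.292, 0.289 and 0.613 CPM with vehicle, 5.07 ± 0.45), the apelin receptor gene *Aplnr* (8.70, 6.07 and 9.85 CPM with 1,25D3 and 0.292, 0.505 and 0.123 CPM with vehicle, 4.72 ± 0.85) and the T cell co-receptor gene *Cd28* (15.7, 33.5 and 24.3 CPM with 1,25D3 and 0.497, 1.30 and 0.899 CPM with vehicle, 4.78 ± 0.44) were also low with vehicle and rose. Other members of this group were *Relt*, a member of the tumour necrosis factor receptor family (4.22 ± 0.29), and the phospholipid transporter gene *Abcb4* (4.07 ± 0.70). The predicted genes *Gm10471*, *Gm1979* and *Gm5862* belong to the same group of largest increases. They lie in a stretch of *Speer*-like genes that are near-identical copies, so reads may be shared between them and their values are uncertain. The same holds for *Speer4a* (23.7, 15.6 and 18.5 CPM with 1,25D3 and 2.43, 1.48 and 0.654 CPM with vehicle).

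Among genes that signal to bone-resorbing cells, that of RANKL rose and that of its decoy receptor fell. *Tnfsf11* (RANKL, the ligand osteoclast precursors need) had 105, 81.7 and 87.5 CPM with 1,25D3 and 12.0, 6.75 and 5.76 CPM with vehicle (3.48 ± 0.26, adjusted p = 8.58e-07). *Tnfrsf11b*, which encodes the decoy osteoprotegerin that captures it, had 24.6, 16.6 and 20.8 CPM with 1,25D3 and 92.1, 55.1 and 54.1 CPM with vehicle (−1.70 ± 0.30), a call lost without both libraries that stood apart (−1.26, adjusted p = 0.0575). Vehicle replicate 1 was the highest vehicle library for both genes. *Ptges*, the gene of a prostaglandin E synthase, rose to 351, 391 and 386 CPM, against 94.6, 76.9 and 84.9 CPM with vehicle (2.14 ± 0.13), and *Wnt5a* to 497, 404 and 521 CPM, against 294, 253 and 259 CPM with vehicle (0.82 ± 0.15). The phospholipase gene *Pla2g5*, whose product releases fatty acids that prostaglandins are made from, was at 17.8, 21.7 and 17.0 CPM with 1,25D3 and 0.819, 1.55 and 1.14 CPM with vehicle (4.01 ± 0.39). Of 20 genes tested in the osteoclast support list 3 rose and 2 fell (4 and 0 without both libraries that stood apart). *Sema3a*, a secreted guidance factor that restrains osteoclasts in mice, was the other decrease (−0.88 ± 0.18) and did not pass without both libraries that stood apart (−0.56, adjusted p = 0.0999). *Csf1* and *Il6*, for a colony-stimulating factor and a cytokine that also act on osteoclasts, were listed below 3 CPM in all 6 libraries. Whether their reads were undercounted was not tested.

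Mineralization genes went both ways, 6 higher and 5 lower of 30 tested (7 and 8 with only the 6 day 35 libraries in the fit). Among those that rose, *Spp1* (osteopontin, a matrix phosphoprotein that binds mineral) reached 2873, 3259.6 and 4025 CPM, against 324, 268 and 268 CPM with vehicle (3.56 ± 0.22, adjusted p = 2.58e-07). *Enpp1*, the gene of the enzyme that makes pyrophosphate, had 49.0, 42.8 and 50.2 CPM with 1,25D3 and 12.0, 4.98 and 5.52 CPM with vehicle (2.65 ± 0.29). *Ank*, for the transporter that moves pyrophosphate precursors out of cells, had 178, 199 and 226 CPM with 1,25D3 and 77.2, 59.0 and 55.4 CPM with vehicle (1.66 ± 0.26). With *Enpp1* and *Ank* rose *Enpp3*, a relative of *Enpp1* (13.0, 16.0 and 20.6 CPM with 1,25D3 and 0.526, 0.325 and 0.368 CPM with vehicle, 5.32 ± 0.48). The kinase gene *Fam20c*, whose product phosphorylates matrix proteins, was at 77.1, 98.2 and 107 CPM with 1,25D3 and 34.6, 33.5 and 39.4 CPM with vehicle (1.39 ± 0.28), a call lost without both libraries that stood apart (adjusted p = 0.0686). *Mgp*, for a matrix protein that inhibits calcification, had 220.2, 133 and 188 CPM with 1,25D3 and 98.0, 89.7 and 93.1 CPM with vehicle (0.95 ± 0.20), and its call needed 1,25D3 replicate 1 (adjusted p = 0.0523 without it).

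Among the mineralization genes that fell, *Smpd3* changed most. It encodes a neutral sphingomyelinase that mice need to mineralize bone, and it had 30.5, 30.7 and 29.2 CPM with 1,25D3 and 211, 199.7 and 196 CPM with vehicle (−2.75 ± 0.17, adjusted p = 2.58e-07). *Ibsp*, for the matrix protein bone sialoprotein, had 5621, 5067 and 5669 CPM with 1,25D3 and 11405, 13996 and 17416 CPM with vehicle (−1.39 ± 0.19). *Nt5e*, for an enzyme that turns AMP into adenosine and phosphate, had 88.7, 94.4 and 73.3 CPM with 1,25D3 and 174, 195 and 201 CPM with vehicle (−1.15 ± 0.15), and the carbonic anhydrase gene *Car12* had 4.10, 4.61 and 2.20 CPM with 1,25D3 and 22.2, 20.9 and 14.1 CPM with vehicle (−2.40 ± 0.30). The groups stood well apart for these 4 genes. *Phex*, whose loss in mice and people causes phosphate wasting, had 133, 175 and 164 CPM with 1,25D3 and 224, 308 and 266 CPM with vehicle (−0.76 ± 0.15); its call was lost without 1,25D3 replicate 1 (adjusted p = 0.0695) or vehicle replicate 2 (adjusted p = 0.0883). *Alpl*, the alkaline phosphatase gene that removes pyrophosphate, lay at 166, 204 and 235 CPM with 1,25D3 and 389.8, 404 and 344 CPM with vehicle without passing (−0.91 ± 0.25, adjusted p = 0.0533). *Galnt3*, for an enzyme that protects FGF23 from cleavage, was at 69.3, 86.3 and 92.1 CPM with 1,25D3 and 124, 131 and 136 CPM with vehicle (−0.66 ± 0.20, adjusted p = 0.0866). Both passed in DESeq2 (adjusted p = 0.0138 for *Alpl* and 0.00927 for *Galnt3*) and with only the 6 day 35 libraries (0.0101 and 0.0366), and *Alpl* with no low-count filter (0.0494). The groups of *Alpl* and *Galnt3* did not overlap, which held in this direction for 12.5% of all genes tested. The groups of *Dmp1* did overlap (0.48 ± 0.23, adjusted p = 0.364).

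Among 31 osteoblast genes 1 rose, *Spp1*, and 7 fell, with a median log2 change of −0.51. The number lower was 3 without 1,25D3 replicate 1, 4 without 1,25D3 replicate 2 or 3, vehicle replicate 2 or 3 or both libraries that stood apart, and 11 with only the 6 day 35 libraries in the fit. *Sp7*, the gene of the osteoblast transcription factor osterix, had 22.8, 28.9 and 31.5 CPM with 1,25D3 and 79.7, 87.3 and 62.3 CPM with vehicle (−1.46 ± 0.21, adjusted p = 0.000602). The channel gene *Panx3* had 22.9, 27.7 and 35.3 CPM with 1,25D3 and 158, 105 and 81.9 CPM with vehicle (−2.01 ± 0.28). The parathyroid hormone receptor gene *Pth1r* had 6.28, 6.64 and 5.30 CPM with 1,25D3 and 13.5, 23.2 and 26.7 CPM with vehicle (−1.80 ± 0.39), a call lost without 1,25D3 replicate 1 or 3 or vehicle replicate 2 or 3, with the highest adjusted p, 0.103, without vehicle replicate 3, and lost with background subtracted (0.0529). The genes of collagen I, the main bone collagen, did not pass: *Col1a1* had 4138, 5279 and 6531 CPM with 1,25D3 and 7976, 7258 and 7341 CPM with vehicle (adjusted p = 0.585), and *Col1a2* had 23356, 25963 and 27909 CPM with 1,25D3 and 20895, 31659.9 and 33347 CPM with vehicle (adjusted p = 0.802). *Bglap* (osteocalcin) had 448, 443 and 585 CPM with 1,25D3 and 324, 763 and 736 CPM with vehicle (adjusted p = 0.702), where vehicle replicate 1 was below all other libraries and vehicle replicates 2 and 3 above them. *Bglap* and *Bglap2* are close copies and reads may be shared between them. *Runx2* was at 2.83, 4.31 and 2.56 CPM with 1,25D3 and 7.43, 5.41 and 4.99 CPM with vehicle (adjusted p = 0.173).

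Of 30 osteocyte genes 5 rose and 6 fell (median −0.25), and the number lower was 3 without 1,25D3 replicate 1 or vehicle replicate 2. *Fbln7*, for a secreted matrix adhesion protein, had 154, 149 and 182 CPM with 1,25D3 and 32.1, 31.8 and 31.0 CPM with vehicle (2.35 ± 0.14, adjusted p = 1.82e-07). *Dstn*, for an actin-severing protein, had 1194, 1221 and 1314 CPM with 1,25D3 and 696, 596 and 646 CPM with vehicle (0.94 ± 0.14). The matrix genes *Tnc* and *Tnn*, for tenascins C and W, fell: *Tnc* had 1693, 1554 and 1791 CPM with 1,25D3 and 3891, 4985 and 5269 CPM with vehicle (−1.49 ± 0.15), and *Tnn* had 778, 766 and 801 CPM with 1,25D3 and 1744, 1714 and 1971 CPM with vehicle (−1.21 ± 0.15). *Ptprz1*, a receptor tyrosine phosphatase gene, had 11.3, 21.2 and 18.9 CPM with 1,25D3 and 94.5, 85.5 and 66.2 CPM with vehicle (−2.26 ± 0.42, adjusted p = 0.00391), which did not pass in DESeq2's Wald test (adjusted p = 0.0894). The gap junction gene *Gja1*, through which osteocytes connect, did not pass (3529.9, 2342 and 3179.5 CPM with 1,25D3 and 2769.5, 3140.2 and 3962 CPM with vehicle, adjusted p = 0.838), nor did *Pdpn*, for a membrane protein of their processes (103, 63.4 and 88.9 CPM with 1,25D3 and 79.1, 49.7 and 50.6 CPM with vehicle, adjusted p = 0.256).

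**Figure D3:**
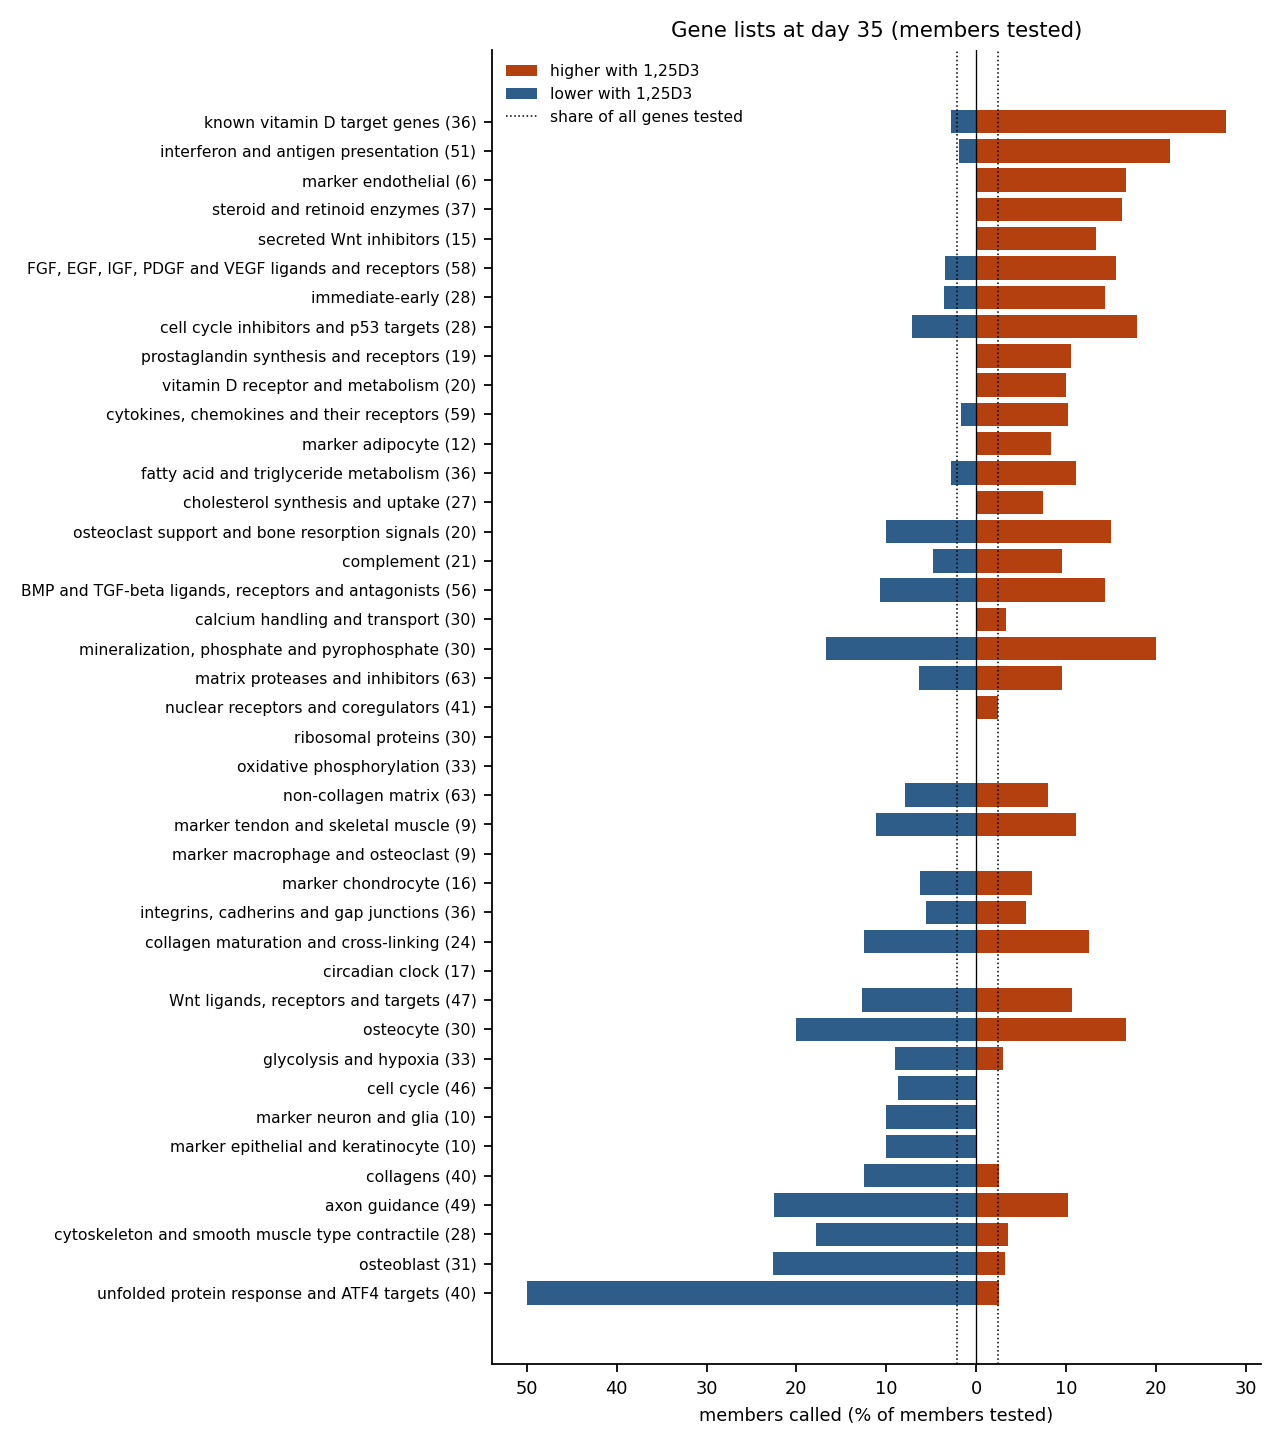
Share of the tested members of each of 41 gene lists called higher (orange, right) or lower (blue, left) with 1,25D3 at day 35, with the number tested in brackets; dotted lines mark the share over all genes tested, 2.41% higher and 2.14% lower. The list of the unfolded protein response and ATF4 targets has the largest share lower (50%) and that of known vitamin D targets the largest share higher (27.8%).

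The broadest decrease was in genes of protein folding stress and amino acid supply. The unfolded protein response raises chaperones and degradation factors of the endoplasmic reticulum through XBP1 and ATF6. The linked stress factor ATF4 raises genes of amino acid uptake and synthesis. Of 40 tested genes of these 2 arms, 20 fell and 1 rose, and their median log2 change was −0.76 against 0.02 over all genes. The count was 11 without 1,25D3 replicate 1, 11 without 1,25D3 replicate 2, 11 without vehicle replicate 2, 13 without vehicle replicate 3 and 12 without both libraries that stood apart.

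In the folding arm *Hspa5*, the gene of the chaperone BiP, had 205, 195 and 211 CPM with 1,25D3 and 459.7, 461 and 522 CPM with vehicle (−1.24 ± 0.16, adjusted p = 0.000228). *Edem1*, for a factor that sends misfolded glycoproteins to degradation, had 140.5, 113 and 124 CPM with 1,25D3 and 299, 299 and 298 CPM with vehicle (−1.24 ± 0.13, adjusted p = 2e-05). The spread within each group was small beside the gap for both genes. *Hyou1*, a chaperone gene, had 66.8, 60.5 and 58.7 CPM with 1,25D3 and 128, 117 and 149 CPM with vehicle (−1.08 ± 0.19), *Creld2* had 23.3, 21.3 and 23.6 CPM with 1,25D3 and 35.6, 43.5 and 53.7 CPM with vehicle (−0.96 ± 0.19), and *Herpud1*, for a degradation factor, had 158, 148 and 174 CPM with 1,25D3 and 261, 307 and 314 CPM with vehicle (−0.87 ± 0.14). *Xbp1* itself fell by less (163, 144 and 179 CPM with 1,25D3 and 252, 257 and 248 CPM with vehicle, −0.64 ± 0.15), and its call was lost in each of the 7 leave-outs, at adjusted p-values of 0.0564 to 0.133. *Pdia4* and *Dnajb9*, further folding genes, did not pass (adjusted p = 0.472 and 0.803).

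In the ATF4 arm *Ddit3*, the gene of the stress factor CHOP, had 23.0, 28.1 and 30.8 CPM with 1,25D3 and 46.5, 68.7 and 84.8 CPM with vehicle (−1.29 ± 0.20, adjusted p = 0.00096). The amino acid transporter genes *Slc7a5* (21.3, 17.2 and 31.2 CPM with 1,25D3 and 72.0, 73.8 and 64.4 CPM with vehicle, −1.59 ± 0.26) and *Slc7a11* (19.6, 21.4 and 37.8 CPM with 1,25D3 and 54.3, 83.8 and 73.8 CPM with vehicle, −1.43 ± 0.26) fell. So did the serine and folate pathway genes *Phgdh* (72.6, 78.7 and 88.1 CPM with 1,25D3 and 122, 168 and 194 CPM with vehicle, −1.02 ± 0.17), *Shmt2* (20.9, 23.9 and 29.6 CPM with 1,25D3 and 46.8, 55.7 and 51.9 CPM with vehicle, −1.06 ± 0.16) and *Mthfd2* (70.5, 59.8 and 92.0 CPM with 1,25D3 and 137, 173 and 194 CPM with vehicle, −1.18 ± 0.18). Among these members 1,25D3 replicate 3 was the highest of its group, nearest to vehicle. *Chac1*, for an enzyme that breaks down glutathione, had the largest decrease of the list at 6.56, 4.79 and 14.1 CPM with 1,25D3 and 24.3, 35.5 and 28.4 CPM with vehicle (−1.79 ± 0.39). Its call was lost without 1,25D3 replicate 1 (adjusted p = 0.0761), 1,25D3 replicate 2 (0.0554), vehicle replicate 2 (0.0752) or both libraries that stood apart (0.0681). *Atf4* itself was at 249, 264 and 377 CPM with 1,25D3 and 436, 540.1 and 568 CPM with vehicle (−0.80 ± 0.18) and kept its call only without 1,25D3 replicate 3 or vehicle replicate 1, with adjusted p-values elsewhere of up to 0.122. *Cebpb*, a transcription factor gene that ATF4 shares with other pathways, was the 1 member that rose, to 187, 124 and 134 CPM, against 61.4, 74.8 and 64.2 CPM with vehicle (1.15 ± 0.19).

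Stretches of 3 promoters of these members show the elements that the 2 arms are known to use. They are from RefSeq (build GRCm38.p6, on the strand of the gene, 5′ to 3′), upstream of the annotated start, with the matched element in capitals. *Hspa5* (chr2:34772000-34772068, plus strand) holds an ERSE (CCAAT and CCACG with 9 bases between them), the kind that XBP1 and ATF6 bind, and *Chac1* (chr2:119351023-119351081, plus strand) and *Slc7a11* (chr3:50443646-50443704, minus strand) hold the letters TGATGNAAN or their reverse complement, the kind that ATF4 binds.
Hspa5: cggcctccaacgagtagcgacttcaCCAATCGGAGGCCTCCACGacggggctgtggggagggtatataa
Chac1: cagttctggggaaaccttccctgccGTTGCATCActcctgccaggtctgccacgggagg
Slc7a11: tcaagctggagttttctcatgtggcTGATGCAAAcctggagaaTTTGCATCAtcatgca

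These motifs were chosen after the calls of the stress and interferon lists were known. The search covered both strands of 250 bases before to 50 after each start, in the 12440 tested genes with a RefSeq promoter. The ATF4-type letters stood in 5 of the 17 matched list members that fell (*Asns*, *Chac1*, *Herpud1*, *Slc7a11* and *Trib3*), in 1 of the 17 matched members that did not, and in 3.63% of all 12440. *Asns* and *Trib3* each lost their call without 1,25D3 replicate 1 or 2 or vehicle replicate 2 or 3, and *Asns* also without both libraries that stood apart, with adjusted p-values of up to 0.106 without 1,25D3 replicate 1 and 0.148 without vehicle replicate 3. Among the 286 matched genes that fell anywhere in the table the share was 6.99% (20 genes), with a 95% exact interval of 4.32% to 10.6%, and among the 322 that rose 2.48% (8 genes). The 20 genes include the 5 list members, and the list holds known ATF4 targets, so these shares are no independent evidence. The XBP1 and ATF6 type letters stood in 2 of the 17 that fell (*Creld2* and *Hspa5*) and in 5 of the 17 that did not. These counts describe letters in the windows, and binding was not measured.

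**Figure D4:**
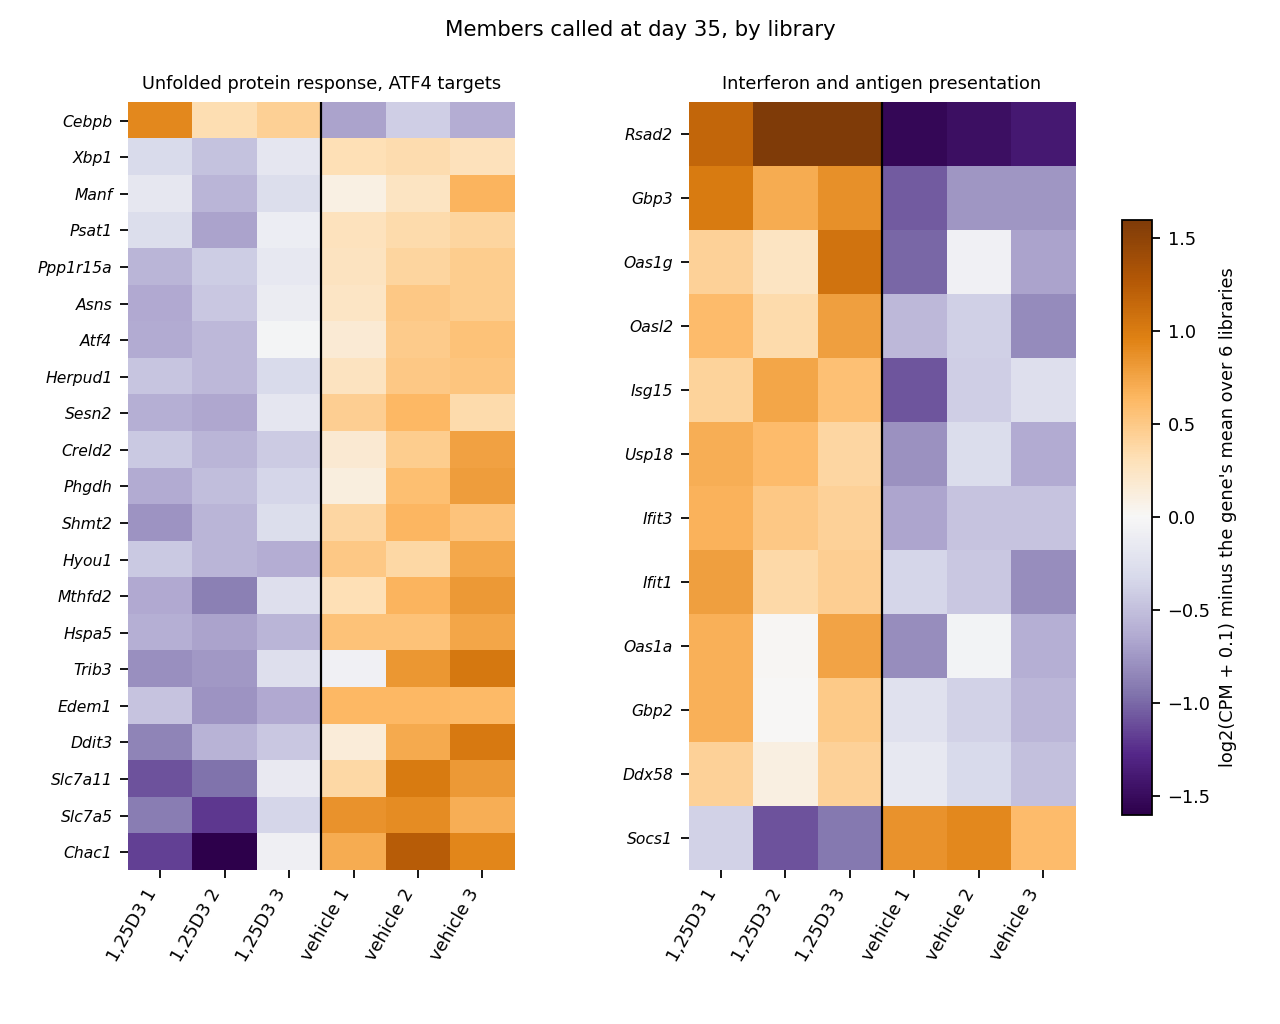
Log2(CPM + 0.1) minus the gene's mean over the 6 day 35 libraries, for the called members of the list of the unfolded protein response and ATF4 targets (left) and of the interferon and antigen presentation list (right); columns are the 3 1,25D3 libraries and then the 3 vehicle libraries, and each row is a gene ordered by its log2 change. In the stress list 20 of the 21 rows are lower with 1,25D3, and in the interferon list 11 of the 12 are higher.

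Part of the interferon-stimulated genes rose. These genes respond to interferons and encode antiviral proteins. Of 51 tested genes of interferon response and antigen presentation, 11 rose and 1 fell (median log2 change 0.41), and the number that rose was 9 to 12 when single libraries were left out. *Rsad2*, the gene of the antiviral protein viperin, had 16.6, 22.6 and 23.0 CPM with 1,25D3 and 2.49, 2.60 and 2.74 CPM with vehicle (2.99 ± 0.18, adjusted p = 1.82e-07). *Gbp3*, for an interferon-induced GTPase, had 73.9, 60.2 and 67.4 CPM with 1,25D3 and 17.7, 21.8 and 21.8 CPM with vehicle (1.72 ± 0.16), *Ifit3* changed by 1.07 ± 0.13 and *Ifit1* had 80.3, 60.3 and 64.0 CPM with 1,25D3 and 36.8, 34.4 and 26.8 CPM with vehicle (1.06 ± 0.15), the last 2 for proteins that bind viral RNA. The groups were separate for each of the 4. *Oasl2* (1.17 ± 0.23), *Usp18* (1.13 ± 0.20) and *Gbp2* (0.80 ± 0.17) rose as well. *Isg15* (13.8, 17.3 and 15.3 CPM with 1,25D3 and 4.80, 7.83 and 8.58 CPM with vehicle, 1.13 ± 0.28) kept its call only without 1,25D3 replicate 1 or vehicle replicate 3, and was at 0.83 (adjusted p = 0.177) without both libraries that stood apart. The upstream factor gene *Irf7* (adjusted p = 0.107, and 0.029 in DESeq2) and the class I antigen genes *H2-K1* and *B2m* (adjusted p = 0.867 and 0.86) did not pass, and *Socs1*, for an inhibitor of the pathway, fell (−1.65 ± 0.39), a call kept only without 1,25D3 replicate 1 among the 7 leave-outs.

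The guanylate-binding protein genes split by chromosome. The neighbours *Gbp5*, *Gbp3*, *Gbp1* and *Gbp2* on chromosome 3 rose, *Gbp5* at 10.8, 7.10 and 8.60 CPM with 1,25D3 and 3.30, 3.39 and 1.92 CPM with vehicle (1.61 ± 0.23). The neighbours *Gbp8*, *Gbp9*, *Gbp4* and *Gbp10* on chromosome 5 fell, *Gbp4* at 15.7, 10.4 and 10.6 CPM with 1,25D3 and 51.5, 41.7 and 41.0 CPM with vehicle (−1.87 ± 0.19, adjusted p = 1.81e-05) and *Gbp10* at 76.2, 42.6 and 50.9 CPM with 1,25D3 and 150.0, 124 and 138 CPM with vehicle (−1.28 ± 0.20). The calls of *Gbp1* and *Gbp8* depended on single libraries: *Gbp1* was kept only without 1,25D3 replicate 1, with adjusted p-values elsewhere of up to 0.157, and *Gbp8* only without 1,25D3 replicate 1 or vehicle replicate 1, with up to 0.11. These genes are close relatives, so part of their reads may be shared within each cluster. They were named after their values were seen. *Gbp8*, *Gbp9*, *Gbp4* and *Gbp10* were not in the interferon list, so its count of 11 higher and 1 lower leaves them out.

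Interferon response elements (ISRE-type: GAAA, any 2 bases, and GAAA again, or the reverse complement) were searched likewise. They stood in the promoters of 9 of the 10 matched list members that rose, in 10 of the 29 that did not, in 9.32% of all 322 matched genes that rose (30 genes, 95% exact interval 6.37% to 13.0%), in 4.90% of all 286 matched genes that fell (14 genes, 2.70% to 8.08%) and in 3.86% of all 12440. The 30 genes include the 9 list members, and the list holds genes known to respond to interferon, so these shares are no independent evidence. The promoters of 4 are shown as above, with each match in capitals: *Rsad2* (chr12:26456538-26456597, minus strand), *Ifit1* (chr19:34640760-34640819, plus strand), *Isg15* (chr4:156200862-156200921, minus strand) and *Gbp2* (chr3:142620579-142620638, plus strand). *Ifit1* holds 2 matches and *Isg15* 3 that overlap.
Rsad2: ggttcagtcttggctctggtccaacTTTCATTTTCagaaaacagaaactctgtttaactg
Ifit1: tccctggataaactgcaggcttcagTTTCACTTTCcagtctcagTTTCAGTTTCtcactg
Isg15: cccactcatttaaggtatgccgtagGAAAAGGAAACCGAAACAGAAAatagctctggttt
Gbp2: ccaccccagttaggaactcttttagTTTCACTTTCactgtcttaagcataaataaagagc

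Secreted signals of several families changed. Of 15 secreted Wnt inhibitor genes 2 rose: *Notum*, for an enzyme that strips the lipid from Wnt proteins, at 24.1, 34.9 and 38.3 CPM with 1,25D3 and 2.89, 2.85 and 3.35 CPM with vehicle (3.42 ± 0.22, adjusted p = 3.4e-07), and *Wif1* at 37.2, 69.8 and 65.4 CPM with 1,25D3 and 15.1, 20.9 and 20.1 CPM with vehicle (1.62 ± 0.33, adjusted p = 0.119 without both libraries that stood apart and 0.0783 with background subtracted). In DESeq2, and with only the 6 day 35 libraries in the fit, the list had 3 higher and 4 lower, and without both libraries that stood apart 1 higher. *Dkk1* (0.0807, 0.364 and 0.953 CPM with 1,25D3 and 3.13, 7.51 and 3.35 CPM with vehicle, adjusted p = 0.0962, and 0.0106 in DESeq2) and *Sfrp4* (43.1, 21.8 and 36.9 CPM with 1,25D3 and 28.2, 17.6 and 20.8 CPM with vehicle, adjusted p = 0.433) did not pass. Of 47 Wnt ligands, receptors and targets 5 rose and 6 fell. The number higher was 3 without 1,25D3 replicate 3 or vehicle replicate 3 and 8 in DESeq2, and the number lower 3 without 1,25D3 replicate 2 or 3 or vehicle replicate 1 or 2 and 2 without both libraries that stood apart. The ligand gene *Wnt2b* was at 18.4, 28.8 and 32.0 CPM with 1,25D3 and 3.39, 2.02 and 2.74 CPM with vehicle (3.28 ± 0.32), while *Wnt10b*, a ligand known to favour bone formation in mice, was at 7.79, 7.82 and 6.31 CPM with 1,25D3 and 32.9, 28.2 and 25.6 CPM with vehicle (−1.98 ± 0.28).

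The BMP and TGF-beta list had 8 higher and 6 lower of 56 (6 and 3 without both libraries that stood apart). *Fst*, for the activin antagonist follistatin, had 558, 493 and 619 CPM with 1,25D3 and 257, 225 and 216 CPM with vehicle (1.26 ± 0.14). *Gdf6*, for a BMP-type ligand, had 37.6, 20.8 and 35.9 CPM with 1,25D3 and 9.44, 7.79 and 8.99 CPM with vehicle (1.85 ± 0.22), and *Inhbb*, for an activin subunit, rose too (1.02 ± 0.19). *Bmp3*, for a ligand that opposes other BMPs, had 44.8, 64.0 and 55.5 CPM with 1,25D3 and 129, 159 and 132 CPM with vehicle (−1.36 ± 0.19), and the pseudoreceptor gene *Bambi* (−1.23 ± 0.14) and the BMP target *Id2* (−1.37 ± 0.17) fell. Growth factor genes had 9 higher and 2 lower of 58 (median 0.38). The number higher was 4 without vehicle replicate 2 or 3 and 5 without 1,25D3 replicate 3, and the number lower was 4 without 1,25D3 replicate 1 and 1 without both libraries that stood apart. *Fgf9* had 14.8, 13.7 and 13.8 CPM with 1,25D3 and 1.23, 1.95 and 2.29 CPM with vehicle (2.95 ± 0.40), *Fgf1* 30.6, 30.5 and 38.1 CPM with 1,25D3 and 11.4, 7.69 and 6.13 CPM with vehicle (1.97 ± 0.39), and *Vegfc*, a growth factor of lymph vessels, 5.09, 4.46 and 5.06 CPM with 1,25D3 and 1.90, 1.77 and 1.80 CPM with vehicle (1.42 ± 0.28). *Ctgf*, for a matrix-bound growth factor modulator, had 348, 334 and 376 CPM with 1,25D3 and 147, 115 and 128 CPM with vehicle (1.44 ± 0.27), while its relative *Wisp1* fell to 315, 327 and 310.4 CPM, against 589.7, 601 and 548 CPM with vehicle (−0.87 ± 0.12).

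Cytokine receptor genes were among 6 higher and 1 lower of 59 cytokine, chemokine and receptor genes (median 0.53). *Il4ra*, the interleukin 4 receptor gene, had 171, 156 and 161 CPM with 1,25D3 and 49.3, 38.9 and 44.3 CPM with vehicle (1.88 ± 0.14, adjusted p = 8.58e-07), and its partner *Il13ra1* had 87.6, 78.2 and 79.0 CPM with 1,25D3 and 57.2, 48.9 and 46.0 CPM with vehicle (0.69 ± 0.14). *Il1rl1*, for the interleukin 33 receptor, had 70.7, 56.0 and 70.9 CPM with 1,25D3 and 19.7, 9.67 and 11.4 CPM with vehicle (2.27 ± 0.27), while *Il1rap*, for the chain it pairs with, had 14.9, 11.2 and 16.7 CPM with 1,25D3 and 31.8, 34.5 and 28.3 CPM with vehicle (−1.14 ± 0.18). The complement genes *C3* and *C2* rose, *C3* to 182, 179.8 and 252 CPM, against 21.5, 11.1 and 12.6 CPM with vehicle (3.76 ± 0.35), and *C2* to 105, 183 and 174 CPM, against 41.8, 37.1 and 30.5 CPM with vehicle (2.07 ± 0.25). Macrophage and osteoclast markers summed to 542 to 665 CPM with 1,25D3 and 595 to 759 CPM with vehicle. Most of each sum was *Ctsk*, at 506 to 720 CPM, and 11 of the 16 members stayed below 1 CPM in every library. In edgeR 0 of 9 tested were called, 0 had an unadjusted p below 0.05, and DESeq2 called 0, and 3 of 16 had 0 counts in all libraries.

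Matrix genes changed in parts. Of 40 collagen genes 1 rose and 5 fell, or 2.5% and 12.5%, against 2.41% and 2.14% of all genes tested. The number lower was 3 without 1,25D3 replicate 2 or 3, vehicle replicate 3 or both libraries that stood apart and 2 without vehicle replicate 2, and the number higher was 0 without vehicle replicate 2 or both. *Col15a1* had 6.94, 8.28 and 8.31 CPM with 1,25D3 and 37.6, 32.6 and 36.4 CPM with vehicle (−2.18 ± 0.30), and the membrane collagen gene *Col13a1* had 17.1, 19.5 and 26.4 CPM with 1,25D3 and 50.2, 70.3 and 78.3 CPM with vehicle (−1.66 ± 0.28). In collagen maturation (3 higher and 3 lower of 24, with 1 lower in every leave-out but that of 1,25D3 replicate 1) the cross-linking enzyme genes *Tgm2* (169, 163 and 160.1 CPM with 1,25D3 and 44.9, 37.9 and 45.3 CPM with vehicle, 1.94 ± 0.13) and *Loxl2* (378, 409 and 502 CPM with 1,25D3 and 230.0, 146 and 131 CPM with vehicle, 1.35 ± 0.25) rose. *Pcolce2*, for an enhancer of procollagen cleavage, fell to 2.24, 2.61 and 1.93 CPM, against 14.3, 15.3 and 16.7 CPM with vehicle (−2.77 ± 0.36). The proteases *Adamts1* (1239, 886 and 1145 CPM with 1,25D3 and 434, 363 and 409 CPM with vehicle, 1.44 ± 0.16) and *Mmp16* (1.13 ± 0.16) rose, and *Adamts18* (4.58, 6.49 and 6.89 CPM with 1,25D3 and 38.9, 43.4 and 40.5 CPM with vehicle, −2.77 ± 0.31) and *Prss35* (129, 80.5 and 109 CPM with 1,25D3 and 728, 681 and 709.7 CPM with vehicle, −2.74 ± 0.18) fell. The cartilage proteoglycan gene *Acan* had 8.94, 15.0 and 14.5 CPM with 1,25D3 and 69.3, 43.6 and 41.9 CPM with vehicle (−2.01 ± 0.30), while *Matn3*, another cartilage matrix gene, rose (1.97 ± 0.26). The chondrocyte markers together summed to 509.6 to 525 CPM with 1,25D3 and 572 to 813 CPM with vehicle, and 2 of 16 passed, 1 each way (1 higher and 2 lower without 1,25D3 replicate 1, vehicle replicate 1 or both libraries that stood apart). Their part in the matrix changes was not tested.

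Guidance genes passed in both directions. The axon guidance list, whose ligands and receptors bone cells also use, had 5 higher and 11 lower of 49, with a median of −0.04. There were 5 higher and 6 lower without 1,25D3 replicate 1, 5 and 5 without 1,25D3 replicate 3, 6 and 6 without vehicle replicate 1, 5 and 7 without vehicle replicate 2, and 6 and 4 without both libraries that stood apart. With libraries scaled to their totals there were 5 higher and 7 lower. *Epha4*, an ephrin receptor gene, rose, with 963, 805 and 877 CPM with 1,25D3 and 130.4, 118 and 127 CPM with vehicle (2.82 ± 0.17, adjusted p = 1.82e-07). *Plxnc1* (−1.68 ± 0.23), *Sema4b* (−1.77 ± 0.25) and *Unc5b* (−1.03 ± 0.15) fell, and *Sema3e* (1.90 ± 0.26) and *Ntn1* (1.18 ± 0.18) rose. N-cadherin (*Cdh2*), which joins osteoblasts, had 79.9, 63.9 and 80.2 CPM with 1,25D3 and 189, 205 and 204 CPM with vehicle (−1.41 ± 0.14). Of 28 contractile genes 1 rose and 5 fell, and each of those 5, *Acta2* among them (85.5, 109.8 and 108 CPM with 1,25D3 and 211, 169 and 161 CPM with vehicle, −0.84 ± 0.19), lost its call in at least 5 of the 7 leave-outs. *Acta2* kept it only without 1,25D3 replicate 2 or vehicle replicate 3.

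Enzymes that make or break hormones and retinoids were higher where they passed in the main fit, 6 of 37, *Cyp24a1* included. There was 1 lower as well under some other settings. Among these were leaving out 1,25D3 replicate 3, DESeq2, the replicate block and a filter of at least 5 CPM in 3 libraries. *Dio3*, for the enzyme that inactivates thyroid hormone, had 48.3, 43.6 and 42.9 CPM with 1,25D3 and 8.16, 8.59 and 6.66 CPM with vehicle (2.52 ± 0.17, adjusted p = 4.67e-07), and *Dio2*, for the enzyme that activates it, had 1253, 726 and 976 CPM with 1,25D3 and 396, 300.2 and 423 CPM with vehicle (1.40 ± 0.25). *Crabp2*, for a retinoic acid carrier, had 419, 365 and 436 CPM with 1,25D3 and 76.4, 60.3 and 88.6 CPM with vehicle (2.44 ± 0.17). *Cyp26a1*, for a retinoic acid degrading enzyme, was low at 3.75, 10.6 and 9.07 CPM with 1,25D3 and 1.05, 0.505 and 0.613 CPM with vehicle (3.42 ± 0.70) and did not pass without both libraries that stood apart (adjusted p = 0.0678). In lipid metabolism *Dgat1*, for an enzyme of triglyceride synthesis, had 21.0, 24.8 and 28.9 CPM with 1,25D3 and 3.33, 3.90 and 3.76 CPM with vehicle (2.77 ± 0.22), and the lipase gene *Lpl* had 85.4, 78.8 and 109 CPM with 1,25D3 and 28.4, 24.8 and 23.0 CPM with vehicle (1.84 ± 0.27). Adipocyte markers, *Lpl* among them, summed to 244 to 296 CPM with 1,25D3 and 177 to 192 CPM with vehicle. Of 12 tested only *Lpl* passed, and *Plin1* was listed at 0. Their part in the lipid changes was not tested. *Hsd17b7*, of cholesterol synthesis, rose (244, 215 and 237 CPM with 1,25D3 and 98.3, 64.9 and 61.0 CPM with vehicle, 1.63 ± 0.18) with *Insig2* (0.98 ± 0.18), 2 of 27 in that list.

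The largest decreases among genes of at least 5 CPM in either group were close in size. *Slc13a5*, for a citrate transporter, had 32.2, 45.5 and 34.1 CPM with 1,25D3 and 265, 263 and 265 CPM with vehicle (−2.83 ± 0.32). *Ccdc88c*, a regulator of Wnt signalling, had 1.76, 1.76 and 0.932 CPM with 1,25D3 and 7.95, 13.4 and 11.2 CPM with vehicle (−2.87 ± 0.49), and the proteoglycan gene *Cspg4*, known as NG2, had 12.4, 11.1 and 11.9 CPM with 1,25D3 and 102, 83.1 and 65.4 CPM with vehicle (−2.82 ± 0.25). The groups of these 3 genes were at least 4-fold apart at their nearest libraries. *Rtn4rl1*, for a Nogo receptor relative, *Fam167a*, *Rab11fip4*, *Prune2* and the transcription factor gene *Tcfcp2l1* fell by 2.75, 2.73, 2.48, 2.42 and 2.35 on the log2 scale.

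Growth arrest and immediate-early genes had a few strong members. Of 28 cell cycle inhibitors and p53 targets 5 rose and 2 fell (1 fell without 1,25D3 replicate 1 or 2, vehicle replicate 2 or both libraries that stood apart), with *Gadd45a* at 221, 208 and 256 CPM with 1,25D3 and 43.2, 68.2 and 78.1 CPM with vehicle (1.86 ± 0.22) and its relative *Gadd45g* at 12.5, 12.2 and 14.7 CPM with 1,25D3 and 50.3, 40.6 and 40.3 CPM with vehicle (−1.74 ± 0.30). *Cdkn2b*, a cell cycle inhibitor gene, rose (234, 173 and 207 CPM with 1,25D3 and 116, 104 and 121 CPM with vehicle, 0.85 ± 0.14), and *Cdkn1a* did not pass (3.17, 1.73 and 3.60 CPM with 1,25D3 and 3.95, 3.79 and 3.68 CPM with vehicle, adjusted p = 0.694). Of 46 cell cycle genes 4 fell, *Cdk6*, *Mcm2*, *Mcm3* and *Rrm2*, and the calls of these 4 were lost in 4 to 6 of the 7 leave-outs. The phosphatase gene *Dusp6*, a brake on ERK signalling, had 241, 200.2 and 229 CPM with 1,25D3 and 80.6, 56.8 and 57.9 CPM with vehicle (1.78 ± 0.17), and the transcription factor gene *Klf4* had 24.8, 28.7 and 33.1 CPM with 1,25D3 and 107, 97.6 and 87.2 CPM with vehicle (−1.75 ± 0.26). Oxidative phosphorylation (33 tested), ribosomal protein (30) and circadian clock (17) genes had 0 members called in edgeR. Unadjusted p-values were below 0.05 for 1, 2 and 3 of them, and DESeq2 called 0, 0 and 2, the 2 being clock genes, 1 each way.

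Of the 322 matched genes that rose, 2 had a vitamin D receptor element in the promoter window, that is, a direct repeat of degenerate half-sites 3 bases apart (DR3). That is 0.621% with a 95% exact interval of 0.0753% to 2.23%, against 0.265% of all 12440 and 0 of 286 that fell. With 4 exact spellings of the half-site, AGGTCA among them, the count was 0 of 322. The 2 are *Kcne4* (chr1:78816748-78816812, plus strand), for a potassium channel subunit, and *Adam22* (chr5:8368349-8368410, minus strand), for a membrane protein of the ADAM family, shown with the match in capitals. *Cyp24a1* had no entry in the table of promoters.
Kcne4: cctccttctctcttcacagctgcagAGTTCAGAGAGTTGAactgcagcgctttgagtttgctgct
Adam22: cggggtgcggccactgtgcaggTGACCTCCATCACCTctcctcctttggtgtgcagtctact

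Genes that responded lay beside another that responded the same way more often than genes not called did, though most did not. In the RefSeq gene order (GRCm38.p6) of 18327 tested genes, 80 of 473 placed genes that rose (16.9%) were next to another that rose, against 4.64% of the 17440 placed genes that were not called. Of 414 placed genes that fell, 40 (9.66%) were next to another that fell, against 4.29%. The 52 stretches held 2 to 8 genes, the longest being the *Speer* copies above. *Ctgf*, *Enpp1* and *Enpp3* form 1 stretch, *Crabp2* and *Nes* another, and *Thbd* and *Cd93*, *S100g*, *Grpr* and *Ap1s2*, and the purine enzyme genes *Pnp* and *Pnp2* are further ones. *Nes*, for the filament protein nestin, had 135, 137 and 146 CPM with 1,25D3 and 9.79, 13.3 and 15.5 CPM with vehicle (3.44 ± 0.18, adjusted p = 9.34e-08), and *Pnp* had 241, 221 and 252 CPM with 1,25D3 and 64.6, 66.1 and 76.5 CPM with vehicle (1.78 ± 0.15). Neighbours can share reads where they overlap, and some stretches are families of copies, which were not taken out of these shares. The shares were also not matched for level: the median with vehicle was 17.1 CPM for genes that rose, 42.6 CPM for genes that fell and 3.05 CPM over all tested. Stretches were named after their values were seen.

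The hormone response of late cells was set against that of the day 3 libraries. The contrast of the 2 responses, tested in the same fit, passed for 1420 genes (7.08%), 831 more positive at day 35 (4.14%) and 589 more negative (2.94%). At day 3 itself 11.4% of genes tested were called higher with the hormone and 9.09% lower. Those called higher included 144 of the 722 olfactory receptor genes tested, of which 0 were called higher at day 35. The median difference over all genes was −0.29, with a day 3 median of 0.26. The day 3 hormone libraries carried 1.24% to 1.92% background, against 0.0039% to 0.0591% in day 3 vehicle libraries. Their scaling factors (TMM) were 1.18 to 1.29 with the hormone and 0.909 to 0.959 with vehicle. At day 3 an effect of the hormone and a difference between the libraries or their handling cannot be told apart, and the contrast carries both. Subtracting the background gave 872 more positive and 468 more negative genes and a median of −0.02. The direction split also moved with scaling, to 674 and 769 with upper quartiles and 481 and 1481 with library totals, and the count rose to 4890 without 1,25D3 day 35 replicate 2, the day 35 library of highest background.

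Of the 484 genes that rose at day 35, 259 (53.5%) differed from day 3 in the same direction and 4 in the other. Of the 430 that fell, 121 (28.1%) differed in the same direction and 10 in the other. The difference contains the day 35 change that picked these genes, so its direction among them is largely set by that choice. At day 3 itself, 147 of the 484 were called higher, 83 lower and 254 not called. Of the 430, 143 were called lower at day 3, 33 higher and 254 not called. *Cyp24a1* rose more at day 35 than at day 3 (10.62 at day 35 and 5.87 at day 3, difference 4.76 ± 0.76, and 8.46 with background subtracted), as did *Spp1* (3.56 at day 35 and 1.48 at day 3, 2.08 ± 0.29). *Tnfsf11* (3.48 at day 35 and −0.12 at day 3, 3.60 ± 0.34), *Notum* (3.42 at day 35 and −0.15 at day 3, 3.57 ± 0.30), *Relt* (4.22 at day 35 and −0.27 at day 3, 4.49 ± 0.37), *Bdkrb2* (5.07 at day 35 and 0.18 at day 3, 4.90 ± 0.58) and *Il4ra* (1.88 at day 35 and −0.03 at day 3, 1.91 ± 0.19) rose at day 35 and did not pass at day 3. Of 28 immediate-early genes tested, 26 were called lower at day 3 and 0 higher, beside 9.09% of all genes lower. At day 35, 4 of the 28 rose and 1 fell, and the difference passed as more positive for 21 and more negative for 0. Of 28 contractile genes, 21 were called lower at day 3 and 0 higher. A set of genes moved in opposite directions. *Ctgf* changed by 1.44 at day 35 and −6.83 at day 3 (difference 8.28 ± 0.43), *Maff* by 0.97 at day 35 and −5.03 at day 3 (6.00 ± 0.24), *Il1rl1* by 2.27 at day 35 and −2.79 at day 3 (5.07 ± 0.38), *Rsad2* by 2.99 at day 35 and −1.20 at day 3 (4.19 ± 0.24) and *Nes* by 3.44 at day 35 and −0.99 at day 3 (4.43 ± 0.25).

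The reverse pattern, lower at day 35 and higher at day 3, held genes that were near silent in day 3 vehicle cells. *Ptprz1* changed by −2.26 at day 35 and 4.74 at day 3 (difference −7.00 ± 0.76) and *Bmp3* by −1.36 at day 35 and 4.17 at day 3 (−5.53 ± 0.40). Over the 3 libraries *Bmp3* had 144 counts in day 3 hormone cells and 10 in day 3 vehicle cells. With background subtracted the *Bmp3* difference was −3.16 (adjusted p = 0.0575) and that of *Ptprz1* −6.17 (adjusted p = 0.000182), while without day 3 vehicle replicate 1 that of *Ptprz1* was −11.9. *Smpd3* (−2.75 at day 35 and −0.47 at day 3, difference −2.27 ± 0.24), *Sp7* (−1.46 at day 35 and 0.63 at day 3, −2.09 ± 0.31) and *Acan* (−2.01 at day 35 and 0.88 at day 3, −2.89 ± 0.47) fell at day 35 and did not pass at day 3. With background subtracted the *Acan* difference was 1.02 (adjusted p = 0.482), of the other sign. *C3* and *Dio2* rose at both days and by less at day 35 (*C3* by 3.76 at day 35 and 5.74 at day 3, difference −1.98 ± 0.49, and *Dio2* by 1.40 at day 35 and 4.09 at day 3, −2.69 ± 0.35). The difference of *C3* (adjusted p = 0.0224) did not pass without day 35 1,25D3 replicate 1 (0.0652) or day 3 vehicle replicate 1 (0.0549).

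Of the 40 stress genes tested, the difference between the days passed for 6, 2 more positive at day 35 and 4 more negative, beside 7.08% of all genes. The differences of *Hspa5* (adjusted p = 0.105), *Mthfd2* (0.447), *Slc7a5* (0.822), *Asns* (0.666) and *Atf4* (0.832) did not pass. Their day 3 changes were −0.60, −0.86, −1.43, −0.99 and −0.90, all negative. *Tgm2* changed by 1.94 at day 35 and 1.95 at day 3, with no difference that passed (adjusted p = 0.995).

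**Figure D5:**
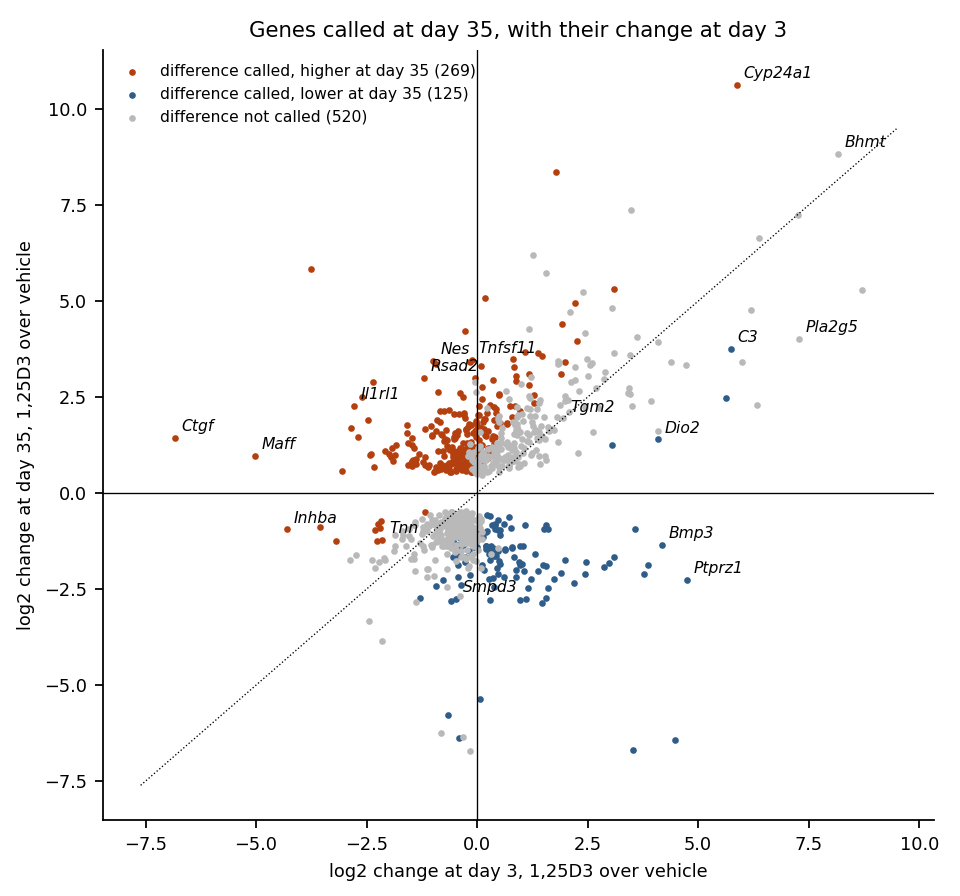
Log2 change at day 35 (vertical axis) against that at day 3 (horizontal axis), 1,25D3 over vehicle, for the 914 genes called at day 35; orange points differ between the days in the positive direction, blue in the negative, grey did not pass, and the dotted line marks equal changes. *Ctgf* and *Maff* lie at upper left, higher at day 35 and lower at day 3, and *Ptprz1* and *Bmp3* at lower right.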

How the data were processed

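RNA of IDG-SW3 cultures was depleted of ribosomal RNA and made into directional libraries, per the labels' protocols. TopHat and the mouse build mm9 are named in the submitters' processing notes, and the counter and its strand setting are not given in the sources used here. Without that setting, reads of overlapping genes on opposite strands may not be told apart. The authors deposited 1 table of 30795 rows per library whose values are whole-number raw counts, although the files are named for another unit. They were used as counts, after rows of the same symbol were summed.

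The 12 libraries of the hormone experiment (4 groups of 3) entered 1 edgeR 4.0.16 fit in R 4.3.3 with filterByExpr, TMM scaling and the quasi-likelihood F test, with 8 residual degrees of freedom. p-values are two-sided with Benjamini-Hochberg adjustment over all genes tested, and calls are below 0.05. CPM are scaled with TMM. Values written as ± are log2 changes with a standard error derived from the F statistic. Totals at day 35 were 28114286 to 54325515 counts, and counting intervals cover counting error only.

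The genes and the 41 lists were chosen with earlier results of these data known. Named were the 15 called genes with the largest change in each direction (at least 5 CPM in the higher group), up to 4 called members per list by adjusted p, a set of genes of vitamin D and bone biology, and the 8 largest differences from day 3 in each direction. Some of these were passed over, and other genes named were chosen after their values were seen. Script steps were tested on simulated counts. Alternatives were other scalings and filters, DESeq2 1.42.0, a replicate block, background subtraction, only the 6 day 35 libraries, and leaving out libraries. Leaving out both libraries that stood apart, and the list counts under each alternative, were chosen after seeing the data. Promoter sequences are from RefSeq GRCm38.p6, and no other coordinates are given because the files use mm9.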

Additional observations from a re-analysis of the deposited data

Results flagged for a closer look

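The responses at day 35 and day 3 differed, by the contrast of both in the edgeR fit, for each of the 19 genes whose difference the report gives. The log2 difference was positive for *Ctgf* (8.28), *Maff* (6.00), *Il1rl1* (5.07), *Bdkrb2* (4.90), *Cyp24a1* (4.76), *Relt* (4.49), *Nes* (4.43), *Rsad2* (4.19), *Tnfsf11* (3.60), *Notum* (3.57), *Spp1* (2.08) and *Il4ra* (1.91). It was negative for *Ptprz1* (−7.00), *Bmp3* (−5.53), *Acan* (−2.89), *Dio2* (−2.69), *Smpd3* (−2.27), *Sp7* (−2.09) and *C3* (−1.98). The day 3 hormone libraries carried 1.24% to 1.92% background and the day 3 vehicle libraries 0.0039% to 0.0591%. With it subtracted the difference was −3.16 for *Bmp3*, which no longer passed (adjusted p = 0.0575), −6.17 for *Ptprz1* and 1.02, of the other sign, for *Acan* (adjusted p = 0.482). It was 8.46 for *Cyp24a1*. At day 3 an effect of the hormone and a difference between the libraries cannot be told apart. The difference of *C3* did not pass without day 35 1,25D3 replicate 1 (adjusted p = 0.0652) or day 3 vehicle replicate 1 (0.0549).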

How the results depend on the processing

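The count of 914 genes at day 35 was 1588 with DESeq2's Wald test and 1402 with only the 6 day 35 libraries in the fit; of the 914, 908 and 873 were called there. It ran from 589 to 775 over single libraries left out. With the replicate block it was 785, of which 772 were among the 914. The replicate numbers were not taken as pairs, since no label says that a number marks a shared culture or day. Deviations of same-numbered libraries from their group means had correlations of −0.049, 0.129 and −0.116. With 3 libraries per group these values cannot decide whether the libraries were paired. The 1420 differences from day 3 became 2715 with DESeq2's Wald test, 1135 with the replicate block and 5144 without both day 35 libraries that stood apart, and ran from 925 (without day 3 1,25D3 replicate 3) to 4890 (without day 35 1,25D3 replicate 2) over single libraries. The 20 stress genes called lower ran from 11 to 22 over single libraries and were 12 without both. The 11 axon guidance genes called lower ran from 5 to 9, and were 7 with library totals and 4 without both. The share of promoters of risen genes with a DR3 element was 0 with exact half-sites. Among genes that were not called, the sign changed over single libraries for *B2m* (−0.195 to 0.0699) and *Gja1* (−0.235 to 0.0553), and for *H2-K1* without both libraries (−0.00658). Under settings other than leave-outs, 5 of the 178 named genes lost their call (*Flt1*, *Gbp1*, *Pth1r*, *Ptprz1* and *Wif1*) and 5 gained one (*Alpl*, *Dkk1*, *Galnt3*, *Irf7* and *Sost*). The cause of these changes was not tested. Little can be said of *Mepe* and *Fgf23*, which rest on few counts, and of *Sost*, which had few counts with 1,25D3.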
